A study of Mus musculus with 24 samples.

Results

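The response of OGT knockout (KO) macrophages to lipopolysaccharide (LPS) was examined in 8 of the 24 libraries of the series, all of the KO libraries that were either stimulated with LPS or left unstimulated. The cells were bone marrow-derived macrophages (BMDMs), which are grown in culture from marrow precursors, of 12-week-old C57BL/6J mice. The compared groups were 4 KO libraries from cells given 100 ng/ml LPS for 12 hours, called M1 in the labels, and 4 KO libraries from unstimulated cells, called M0. The 4 wild-type (WT) libraries with LPS and the 4 WT M0 libraries, from the same strain, age and treatment, served for a test of whether the response differed between genotypes, and the remaining 8 libraries, stimulated with IL-4, entered the shared fit through the estimate of the spread and the scaling, whose reference library was 1 of them. The series asks how OGT bears on the proinflammatory activation of macrophages. The labels used here do not say how the knockout was made, which exons it lacks or in which cells, and they do not say whether libraries came from separate mice or cultures, so a p-value measures only how these libraries spread, which may be technical. The libraries of a group are called 5, 6, 7 and 8 for KO and 1, 2, 3 and 4 for WT, after the first digit of their label codes.

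LPS, a glycolipid of the outer membrane of Gram-negative bacteria, is bound by CD14 and MD-2 (the Ly96 product) and sensed by Toll-like receptor 4 (Tlr4). The adaptors MyD88 and TRIF (Ticam1) then activate the NF-kB transcription factors, which switch on inflammatory cytokine genes, and IRF3, which switches on interferon-beta and, through the interferon receptor, the interferon-stimulated genes. OGT is the enzyme that attaches single N-acetylglucosamine sugars to serine and threonine residues of nuclear and cytoplasmic proteins, and its substrate UDP-GlcNAc is made from glucose by the hexosamine pathway.

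Of the 8 KO libraries 7 were deep, with 63429271 to 90900801 counts in genes and 16116 to 16517 genes with at least 1 count. KO LPS 7 held 172771 counts over 10042 genes, and the median deep library held 430 times as many. In KO LPS 7, 1 count equals 5.98 CPM (counts per 1000000 gene counts, scaled by the trimmed mean of M-values), and 3 counts, the limit that a count of 0 allows, equal 17.9 CPM, against 0.0303 to 0.0550 CPM in the deep libraries, for counting error only. WT LPS 1 and 2 were as shallow, with 209368 and 201097 counts. Libraries 5 and 6 resembled each other and stood apart from 7 and 8 in both states. The mean chi-square per gene between libraries, which is near 1 for pure counting noise, was 8.02 between KO LPS 5 and 6 and 99.5 between KO LPS 5 and 8, and in KO M0 it was 9.15 between 5 and 6, 9.47 between 7 and 8 and 47.2 to 65.4 across these pairs. KO LPS 7 and 8 differed by 1.39, at the depth of KO LPS 7.

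Markers of macrophages were present in both groups: Adgre1, which encodes the surface protein F4/80, averaged 1771 ± 178 CPM in KO LPS and 529 ± 87.4 CPM in KO M0, and Lyz2, the macrophage lysozyme, which shares sequence with Lyz1, averaged 3699.6 ± 193 CPM in KO LPS and 5086 ± 399 CPM in KO M0 (SD, n = 4 each). Stromal markers were also abundant: the summed level of all 10 was 16709 to 19074 CPM in KO LPS and 14996 to 19785 CPM in KO M0, and 4 of the 10 (Col3a1, Dcn, Pdgfra and Cxcl12) were called higher with LPS. Collagen Col1a1 alone had 8256, 7892, 6608 and 7397 CPM in KO LPS libraries 5 to 8 and 7087, 7867, 9569 and 9245 CPM in KO M0 libraries 5 to 8. The 8 endothelial markers summed to 87.8 to 138 CPM in KO LPS and 26.4 to 85.0 CPM in KO M0, with Kdr called higher, Egfl7 called lower and the other 6 not called. Neutrophil markers summed to 36.5 to 71.8 CPM in KO LPS, highest in the shallow KO LPS 7, and 25.8 to 39.9 CPM in KO M0. Of the 11 neutrophil markers tested 2 were called higher and 4 lower, with a median log2 change of -0.45. T and NK cell markers summed to at most 7.92 CPM in KO LPS and 15.8 CPM in KO M0, with 1 of 3 tested called higher and 1 lower. Dendritic cell markers summed to 5.98 to 10.7 CPM in KO LPS and 5.19 to 6.06 CPM in KO M0, with 4 of 7 tested called higher and 1 lower. Osteoclast markers summed to 216 to 305 CPM and 216 to 264 CPM, with 5 of 9 called higher and 2 lower. Of 3 B cell markers tested 1 was called higher and 1 lower, and of 5 megakaryocyte markers 0 and 3. Of the 9 erythroid markers 6, the globin genes among them, were at 0 in all 8 libraries. Of the 3 erythroid markers tested 2 were called lower and none higher. The erythropoietin receptor gene Epor had 0.429, 0.881, 0 and 0.459 CPM in KO LPS libraries 5 to 8. In KO M0 libraries 5 to 8 Epor had 9.80, 8.9996, 6.65 and 8.23 CPM. The mast cell and basophil list summed to 112 to 145 CPM in KO LPS and 10.98 to 16.6 CPM in KO M0, most of the LPS sum coming from Hdc, the histamine-forming enzyme gene, with 131, 124, 108 and 84.9 CPM in KO LPS libraries 5 to 8 and 0.151, 0.155, 0.254 and 0.0246 CPM in KO M0 libraries 5 to 8; the defining mast cell genes Tpsb2, Fcer1a and Cpa3 were at or near 0 in every KO library. Most of the M0 sum of that list came from Mcpt8, a basophil protease gene, with 13.3, 13.4, 17.9 and 25.03 CPM in KO LPS and 10.7, 8.9996, 14.1 and 14.4 CPM in KO M0, which was called higher, and Gata2 was called lower. In bulk RNA, fewer cells of a type and less RNA per cell cannot be told apart, and the part of stromal or endothelial cells in the results was not tested.

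Ogt itself (chromosome X, 101640011 to 101684351 in GRCm38) did not pass the test for a response to LPS. It had 34.2, 37.6, 53.8 and 36.98 CPM in KO LPS libraries 5 to 8, 34.5, 34.6, 36.9 and 35.8 CPM in KO M0 libraries 5 to 8, 56.7, 68.001, 54.96 and 57.2 CPM in WT LPS libraries 1 to 4 and 47.3, 51.3, 47.4 and 52.4 CPM in WT M0 libraries 1 to 4. In each state every KO value lay below every WT value, and counts over the whole gene were still made in the KO; such counts do not separate deleted from remaining exons. KO LPS 7, the highest KO value, rests on 9 counts, and WT LPS 1 and 2 are shallow too. The KO LPS over M0 change of Ogt was 0.04 ± 0.06 on the log2 scale (log2 fold change ± SE from edgeR's quasi-likelihood test, adjusted p = 0.564).

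LPS changed the level of most genes in KO macrophages. Of 14693 genes tested, 67.3% were called: 4591 (31.2%) were higher and 5294 (36%) were lower with LPS at an adjusted p under 0.05 (edgeR quasi-likelihood test, Benjamini-Hochberg), the rule for every gene said below to have risen, fallen or been called. The median log2 change over all genes was -0.07. At least 2-fold changes were called in 1814 genes upward (12.3%) and 1634 downward (11.1%), and at least 8-fold changes in 534 upward and 128 downward. Of the 4591 increases, 2996 had the same sign in all 4 same-numbered library pairs, and of the 5294 decreases 4462 did. Number 7 holds the shallow KO LPS 7, where a count of 0 gives a negative sign wherever the M0 count is above 0. The cytokine gene Il6, for example, had log2 differences of 7.69, 7.58, -3.40 and 7.07 for numbers 5 to 8. Rasgrp3, which fell and has 3 counts in KO LPS 7, had -4.24, -4.30, -0.56 and -3.69. How depth changed the same-sign counts was not tested. For 7007 genes (47.7%) the 4 KO LPS values did not overlap the 4 KO M0 values, with 19.2% above M0 and 28.5% below. With the 3 deep KO LPS libraries these shares were 30.9% above and 34.7% below. Without KO LPS 7, 4727 genes were higher and 5273 lower. With KO libraries 5 and 6 alone the counts were 4724 higher and 4959 lower, and with KO libraries 7 and 8 alone 4157 and 4104. When the 8 KO libraries were fitted alone, 3261 were higher and 6358 lower, 33.9% upward in place of 46.4%, with the median of all genes 0.16 lower on the log2 scale; in that fit the shallow KO LPS 7 served as the reference library for scaling. Leaving out any 1 of the 4 KO M0 libraries also made KO LPS 7 the reference and gave 34.2 to 34.8% upward, while without all 3 shallow libraries of the series 5105 genes were higher and 5033 lower. The part of the reference library in these shifts was not tested. Counts of lists whose members moved little on the log2 scale differed between these fits. Their counts in the fit of the 8 KO libraries alone are given beside them. The shares of all tested genes, 31.2% higher and 36% lower, are the background for every list count below, and a list near both shares is described without being set apart from other genes.

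**Figure D1:**
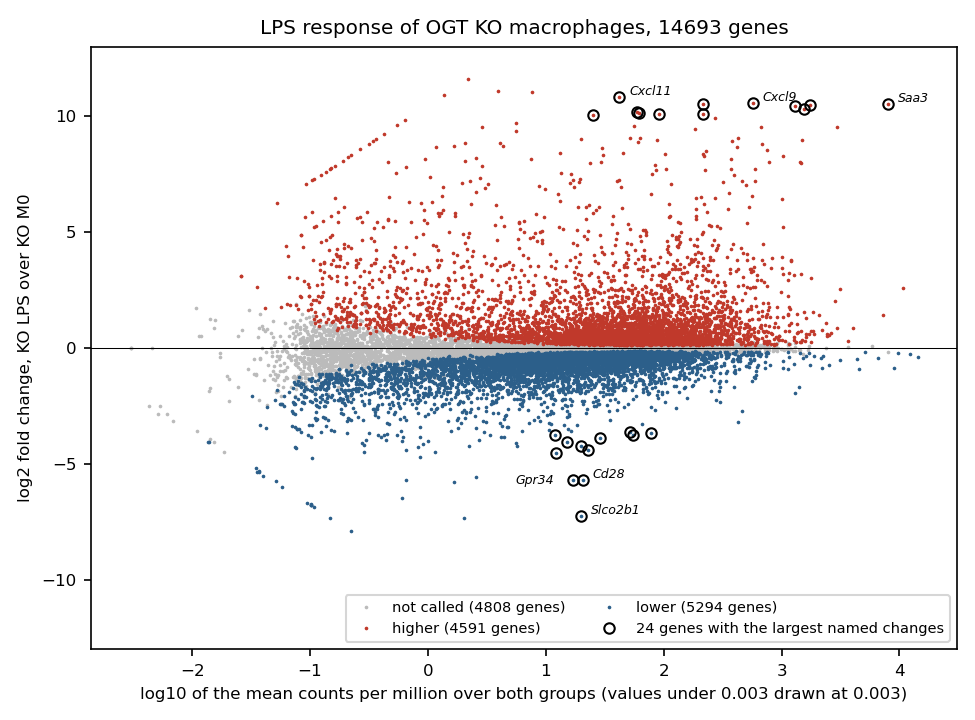
Log2 fold change of KO LPS over KO M0 (y axis) against the log10 mean CPM over both groups (x axis) for the 14693 genes tested. Red points mark the 4591 genes called higher, blue the 5294 called lower, grey the rest, and circles the 24 genes with the largest increases and decreases named below, whose log2 changes lie between 10.06 and 10.86 and between -7.27 and -3.61.

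The 12 largest increases among genes reaching a mean of 20 CPM were Cxcl11, Cxcl9, Saa3, Nos2, Irg1, Cxcl10, Ccl5, Gbp4, Tarm1, Il12b, Ifi205 and Shisa3. Of these, 5 encode secreted immune mediators (Cxcl9, Cxcl10 and Cxcl11, ligands of CXCR3, a chemokine receptor of T cells; Ccl5, another T-cell attractant; and Il12b, which encodes the p40 chain shared by IL-12 and IL-23). Nos2, the inducible nitric oxide synthase (chromosome 11, 78920787 to 78960226), had 555, 556, 245 and 354 CPM in KO LPS libraries 5 to 8 and 0.363, 0.0825, 0.423 and 0.430 CPM in KO M0 libraries 5 to 8. Irg1 (RefSeq symbol Acod1, chromosome 14, 103047012 to 103056573), which makes itaconate from the TCA-cycle intermediate cis-aconitate, had 3762, 3848, 3002 and 3272 CPM in KO LPS and 3.02, 0.371, 4.42 and 1.99 CPM in KO M0. Il12b had 171, 180.2, 179 and 204 CPM in KO LPS and 0.202, 0, 0.353 and 0.147 CPM in KO M0. For all 3 genes every LPS value lay far above every M0 value, and Nos2 was lower in KO LPS 7 and 8 than in 5 and 6. The log2 changes were 10.53 ± 0.30 for Nos2 (adjusted p = 8.62e-21), 10.51 ± 0.69 for Irg1 (adjusted p = 4.2e-13) and 10.12 ± 0.28 for Il12b (adjusted p = 4.58e-21, edgeR).

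Saa3, an acute-phase serum amyloid A protein, had 18039, 18420.4, 12845 and 14281 CPM in KO LPS libraries 5 to 8 and 15.7, 0.990, 17.1 and 8.77 CPM in KO M0 libraries 5 to 8. M0 6 was the lowest, and the log2 change of Saa3 was 10.55 ± 0.97. The serum amyloid genes and Ifi205 have close relatives in the genome, and reads shared between them could be counted for either. Across the 12 genes the M0 level was a small share of the mean KO LPS level that depended on the M0 library: the median over the genes was 0.0931% in M0 5, 0.016% in M0 6, 0.12% in M0 7 and 0.0571% in M0 8. In M0 6 the share was the lowest of the 4 libraries for 10 of the 12 genes, the exceptions being Gbp4 and Shisa3, which were lowest in M0 8. The 12 fold changes rest on M0 values between 0 and 17.1 CPM, and what set those values was not tested.

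**Figure D2:**
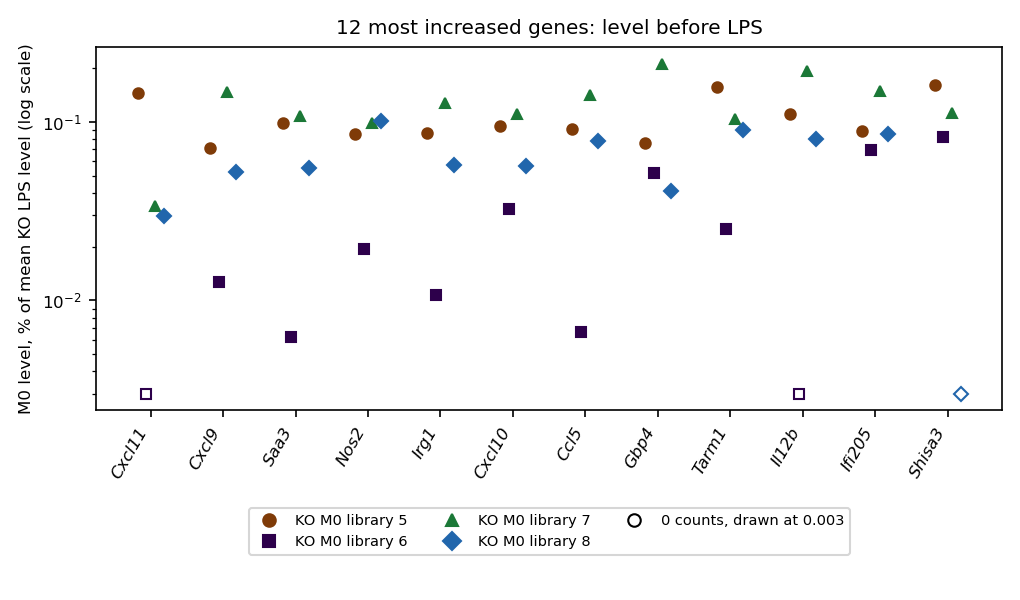
Level of each of the 12 most increased genes in each KO M0 library as a percentage of its mean KO LPS level (y axis, log scale; genes on the x axis in order of log2 change). Shapes and colours mark M0 libraries 5 to 8 and open symbols a count of 0; purple squares (M0 6) lie lowest for 10 of the 12 genes, with a median of 0.016%, and green triangles (M0 7) have the highest median, 0.12%.

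Promoter sequences of some of the most increased genes are shown because NF-kB and interferon-regulated factors bind there in LPS-treated macrophages. RefSeq (GRCm38.p6) held 250 bases before the start for 11547 of the tested genes. Both strands were searched for the NF-kB consensus, for the interferon-stimulated response element (ISRE) written as GAAA, any 2 bases and GAAA again, and for CCAAT, a box that NF-Y binds and that is frequent in promoters of cell division genes. Cxcl9, Saa3 and Irg1 were taken in order of rank and Cdc20 as the leading mitosis gene; Cxcl10 and Nfkbia (which encodes the NF-kB inhibitor IkB-alpha) were added after the matches were seen. Matches are in capitals and each window ends at the base before the start: Cxcl9 at chr5:92328080-92328329, Saa3 at chr7:46715677-46715926, Cdc20 at chr4:118437344-118437593, Cxcl10 at chr5:92348890-92349139 and Nfkbia at chr12:55492648-55492897 on the minus strand, and Irg1 at chr14:103046762-103047011 on the plus strand. They read, 5′ to 3′:
Cxcl9: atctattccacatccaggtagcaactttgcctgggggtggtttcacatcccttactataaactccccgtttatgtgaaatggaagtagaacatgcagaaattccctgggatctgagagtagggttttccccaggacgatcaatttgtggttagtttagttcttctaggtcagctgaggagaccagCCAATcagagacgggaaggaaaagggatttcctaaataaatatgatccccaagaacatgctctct
Saa3: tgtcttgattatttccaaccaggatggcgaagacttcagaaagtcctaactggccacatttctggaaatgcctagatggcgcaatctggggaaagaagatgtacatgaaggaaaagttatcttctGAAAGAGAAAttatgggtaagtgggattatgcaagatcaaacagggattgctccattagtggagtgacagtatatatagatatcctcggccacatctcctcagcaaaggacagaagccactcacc
Irg1: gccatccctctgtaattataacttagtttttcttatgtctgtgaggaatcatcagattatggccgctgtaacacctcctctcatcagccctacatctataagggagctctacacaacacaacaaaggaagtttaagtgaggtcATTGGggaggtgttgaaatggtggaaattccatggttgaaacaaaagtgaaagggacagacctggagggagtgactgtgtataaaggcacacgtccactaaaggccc
Cxcl10: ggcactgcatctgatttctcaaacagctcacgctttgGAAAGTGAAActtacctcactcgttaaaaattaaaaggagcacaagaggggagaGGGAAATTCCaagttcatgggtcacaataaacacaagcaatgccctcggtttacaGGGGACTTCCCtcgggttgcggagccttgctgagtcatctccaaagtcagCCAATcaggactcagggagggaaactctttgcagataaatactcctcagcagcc
Nfkbia: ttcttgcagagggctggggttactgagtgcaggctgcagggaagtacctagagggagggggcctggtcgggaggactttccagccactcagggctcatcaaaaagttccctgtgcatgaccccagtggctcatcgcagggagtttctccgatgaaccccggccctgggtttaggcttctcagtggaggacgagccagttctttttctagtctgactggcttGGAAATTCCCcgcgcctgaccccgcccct
Cdc20: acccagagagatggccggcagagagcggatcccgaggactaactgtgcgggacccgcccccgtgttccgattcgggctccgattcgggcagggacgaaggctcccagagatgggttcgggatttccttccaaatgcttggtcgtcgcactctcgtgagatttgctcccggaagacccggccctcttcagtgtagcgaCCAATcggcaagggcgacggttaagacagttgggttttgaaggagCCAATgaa
The Cxcl10 window held an ISRE match at 213 to 204 bases before the start, NF-kB matches at 159 to 150 and, overlapping each other, from 104 to 94, and CCAAT at 54 to 50. Nfkbia held an NF-kB match at 29 to 20 bases before the start, Saa3 an ISRE match at 125 to 116, Cxcl9 CCAAT at 65 to 61, Irg1 CCAAT on the other strand at 107 to 103, and Cdc20 CCAAT at 53 to 49 and at 8 to 4. Of the 404 windows of genes called at least 8-fold higher, 17.6% held an ISRE match and 15.6% an NF-kB match, against 2.81% and 8.84% of the windows of all tested genes. Among the 12 largest increases 8 had a window, of which 3 held an ISRE match and 1, that of Cxcl10, an NF-kB match. Of the 25 windows of the NF-kB subunit and feedback genes, 44% held an NF-kB match and 0 an ISRE match, and of the 25 windows of the antiviral interferon-stimulated genes 24% and 36% did. The NF-kB consensus is partly symmetric, so the same bases can match on both strands. These shares describe letters in the windows and are not a test of binding.

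Genes of LPS sensing and of the first signalling steps mostly rose: 21 of the 28 on that list rose and 4 fell, with a median log2 change of 0.72 against -0.07 over all genes. Tlr4 did not pass the test, with 37.2, 39.2, 29.9 and 30.1 CPM in KO LPS libraries 5 to 8 and 40.2, 37.2, 31.01 and 31.9 CPM in KO M0 libraries 5 to 8, a log2 change of 0.01 ± 0.10. The groups overlapped, and libraries 7 and 8 were lower than 5 and 6 in both. Cd14, the LPS co-receptor, had 984, 942, 819 and 916 CPM in KO LPS and 159, 151, 146 and 160.1 CPM in KO M0, without overlap, a log2 change of 2.59 ± 0.08 (edgeR adjusted p = 1.49e-20). The adaptor Myd88 averaged 218 ± 38.3 CPM in KO LPS and 55.4 ± 6.48 CPM in KO M0 (SD, n = 4 each; log2 change 2.06). Ikbke, a kinase upstream of IRF3, rose by 3.49, the ubiquitin ligase Peli1 by 2.39, and Irak3, which restrains IRAK signalling, by 3.21. The 4 genes that fell were Irak1 (-0.47), Map3k7 (-0.39), which encodes the kinase TAK1, its partner Tab1 (-0.25) and Tollip (-0.14). Without numbers 5 and 6 the falls on this list numbered 2.

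All 28 NF-kB subunit and feedback genes rose, with log2 changes of 0.53 to 7.73 and a median of 2.47. The inhibitor gene Nfkbia had 340.1, 343, 293 and 295 CPM in KO LPS libraries 5 to 8 and 23.5, 23.9, 20.01 and 21.8 CPM in KO M0 libraries 5 to 8. All LPS values were more than 10 times all M0 values (log2 change 3.86 ± 0.09, edgeR adjusted p = 5.77e-23). Among the subunits, Nfkb2 rose by 2.83, Relb by 2.51, Nfkb1 by 1.27, Rel by 1.26 and Rela by 0.53 on the log2 scale. Tnfaip3 (A20), a ubiquitin-editing brake on the pathway, rose by 3.22, the A20-binding gene Tnip3 by 5.39, the adaptor Traf1 by 7.73, and the superoxide dismutase gene Sod2 by 5.25.

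Of 27 cytokine genes tested, 25 rose and none fell, with a median log2 change of 4.31. Tnf had 273, 275, 275 and 212 CPM in KO LPS libraries 5 to 8 and 6.66, 5.94, 4.996 and 5.997 CPM in KO M0 libraries 5 to 8. The groups did not overlap, and KO LPS 8 was the lowest of the LPS values (log2 change 5.43 ± 0.13, adjusted p = 5.33e-22). Il1b had 523, 529.8, 514 and 601 CPM in KO LPS and 0.858, 0.165, 0.776 and 0.479 CPM in KO M0, again without overlap, a log2 change of 9.92 ± 0.45 (adjusted p = 1.55e-16, edgeR for both genes). Il6 had 43.5, 47.1, 0 and 40.4 CPM in KO LPS and 0.182, 0.216, 0.282 and 0.270 CPM in KO M0, a log2 change of 7.500 ± 0.23. Its value of 0 in KO LPS 7 allows up to 17.9 CPM, so the groups overlapped only through that library. The anti-inflammatory cytokine gene Il10 showed the same, with 16.6, 18.1, 0 and 9.77 CPM in KO LPS and 0.737, 1.13, 0.565 and 0.455 CPM in KO M0 (log2 change 4.31 ± 0.27).

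Il27, which with Ebi3 forms IL-27, rose by 8.04 and Ebi3 by 4.52; the death ligand Tnfsf10 (TRAIL) rose by 7.26 and the IL-1 receptor antagonist Il1rn by 3.82. Ifnb1 (interferon-beta) averaged 1.10 ± 0.739 CPM in KO LPS with a 0 in KO LPS 7 and no count in any KO M0 library, and Csf2 averaged 0.216 ± 0.147 CPM in KO LPS with the same 0 values. Both were called higher, and no fold is given for them. The 2 cytokine genes that did not pass were Inhba (log2 change 0.41 ± 0.23) and Tgfb1 (-0.16 ± 0.10).

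**Figure D3:**
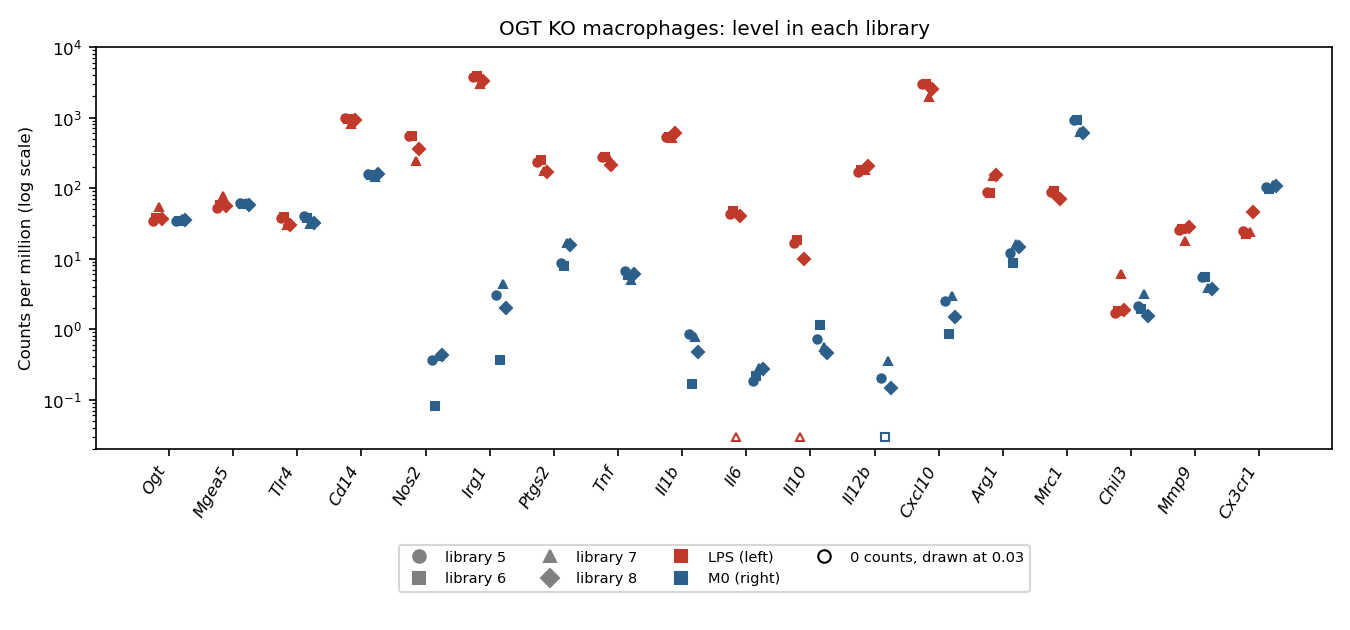
Level of 18 genes in each KO library, in CPM on a log scale, with LPS in red at left and M0 in blue at right for each gene. Shapes mark libraries 5 to 8 and open symbols a count of 0; Nos2, Irg1, Il1b, Il12b and Cxcl10 lie far higher with LPS in all 4 libraries, Mrc1 and Cx3cr1 lie lower, and Ogt, Mgea5, Tlr4 and Chil3 overlap between the groups.

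Of 22 chemokine genes, 20 rose and none fell (median log2 change 5.36). Cxcl10 had 3013, 3000.1, 1932 and 2523 CPM in KO LPS libraries 5 to 8 and 2.49, 0.845, 2.91 and 1.49 CPM in KO M0 libraries 5 to 8, and KO LPS 7 was the lowest of the LPS values (log2 change 10.44 ± 0.54). Ccl2, which attracts monocytes, averaged 1051 ± 222 CPM in KO LPS and 15.99 ± 1.60 CPM in KO M0 (log2 change 6.08), and Ccl12, another CCR2 ligand, 216 ± 63.4 CPM in KO LPS and 4.67 ± 0.300 CPM in KO M0 (log2 change 5.67; SD, n = 4 each). Ccl3 rose by 3.72, the membrane-bound Cxcl16 by 2.73 and the neutrophil attractant Cxcl1 by 7.56. Ccl6 (-0.11 ± 0.08) and Pf4 (0.08 ± 0.10) did not pass the test.

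Receptor genes for these ligands split: of 31 tested, 21 rose and 8 fell, with a median of 0.64. The atypical chemokine receptor gene Ccrl2 rose by 4.79, the IL-15 receptor chain Il15ra by 4.89, the TNF receptor Tnfrsf1b by 3.19 and the dendritic-cell homing receptor Ccr7 by 4.93. The interferon receptor chains Ifnar1 (0.88), Ifnar2 (1.17) and Ifngr2 (1.47) rose and Ifngr1 fell (-0.46). Cxcr4, the receptor of Cxcl12, had 5.995, 7.12, 17.9 and 9.55 CPM in KO LPS libraries 5 to 8 and 87.7, 82.7, 98.9 and 102 CPM in KO M0 libraries 5 to 8, without overlap (log2 change -3.61 ± 0.12). The fractalkine receptor Cx3cr1 had 24.4, 22.3, 23.9 and 46.1 CPM in KO LPS and 102, 97.6, 112 and 105 CPM in KO M0. KO LPS 8 stood above the other 3 LPS libraries, and all LPS values lay below all M0 values (log2 change -1.75 ± 0.18, edgeR adjusted p = 2.54e-09). The TGF-beta receptor genes Tgfbr1 (-1.52) and Tgfbr2 (-0.85) fell, as did the M-CSF receptor gene Csf1r (-0.54).

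All 34 antiviral interferon-stimulated genes rose. In each, LPS and M0 values did not overlap, against 19.2% of all tested genes with LPS above M0 (30.9% with the 3 deep libraries). The median log2 change of the 34 was 4.95 and the range 1.87 to 9.55. Rsad2 (viperin), which blocks viral replication, had 7117, 7252, 4228 and 4970.0 CPM in KO LPS libraries 5 to 8 and 9.51, 6.94, 9.94 and 5.37 CPM in KO M0 libraries 5 to 8. Isg15, a ubiquitin-like modifier, had 2084, 1964, 1997 and 2209.7 CPM in KO LPS and 7.20, 6.31, 7.07 and 5.65 CPM in KO M0. Rsad2 was lower in KO LPS 7 and 8 than in 5 and 6, Isg15 was not, and for both genes every LPS value was far above every M0 value (log2 change 9.55 ± 0.52 for Rsad2 and 8.30 ± 0.30 for Isg15). Genes of the interferon signalling chain rose too: Stat2 by 4.24, Irf7 by 8.02 and Irf9 by 1.87. Irf3, which acts upstream and is regulated by phosphorylation, did not pass (-0.03 ± 0.06). The 4 genes with the smallest adjusted p were Isg20 (5.59), Herc6 (5.02), Mx2 (7.69) and Bst2 (3.93). The summed level of the 34 genes was 26809 to 38816 CPM in KO LPS and 595 to 704 CPM in KO M0.

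Of the interferon-inducible GTPase genes, whose products attack vacuoles of intracellular microbes, all 16 tested rose (median log2 change 6.75). Gbp5 averaged 836 ± 119 CPM in KO LPS and 2.12 ± 0.699 CPM in KO M0 (log2 change 8.66), and Irgm1 averaged 643 ± 59.9 CPM in KO LPS and 43.4 ± 3.89 CPM in KO M0 (log2 change 3.91; SD, n = 4 each). Gbp3 rose by 7.06, Gbp4 by 10.19, Gbp7 by 4.69 and Igtp by 5.89. Members of the Gbp family and Tgtp1 and Tgtp2 are near-copies of each other, so the split of counts between them is uncertain.

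All 29 M1 effector and acute-phase genes tested rose (median log2 change 4.64). Ptgs2, the inducible cyclo-oxygenase COX-2 (chromosome 1, 150100031 to 150108234), had 233, 252, 173 and 170.4 CPM in KO LPS libraries 5 to 8 and 8.77, 7.99, 16.8 and 15.6 CPM in KO M0 libraries 5 to 8. The LPS values were lower and the M0 values higher in libraries 7 and 8 than in 5 and 6, with no overlap between the groups (log2 change 4.15 ± 0.25, edgeR adjusted p = 6.29e-14). Ptges, the next enzyme of prostaglandin E2 synthesis, averaged 1184 ± 181 CPM in KO LPS and 8.08 ± 1.11 CPM in KO M0 (log2 change 7.23). Gch1, which supplies the tetrahydrobiopterin cofactor of nitric oxide synthase, rose by 3.86, and Slc7a2, which imports its substrate arginine, by 4.90. The NAD-consuming ectoenzyme Cd38 rose by 5.19, Slfn4 by 8.40, the formyl peptide receptor Fpr2 by 7.497, the iron-binding lipocalin Lcn2 by 8.50, complement factor Cfb by 8.81 and complement C3 by 7.21. Of the NADPH oxidase subunits, Cybb rose by 2.25 and Ncf1 by 1.27.

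Transcription factor genes went both ways: 21 of 42 rose and 13 fell, with a median of 0.18; the share that fell is near the 36% of all tested genes. Batf averaged 131 ± 15.7 CPM in KO LPS and 3.68 ± 0.382 CPM in KO M0 (log2 change 5.08), Batf2 rose by 5.37, the liver X receptor Nr1h3 by 3.94, Cebpb by 2.19 and Junb by 1.99. Cebpa averaged 89.8 ± 22.9 CPM in KO LPS and 469 ± 53.5 CPM in KO M0 (log2 change -2.25; SD, n = 4 each), and Pparg (-1.71) and Klf2 (-1.53) also fell. Spi1 (PU.1) rose by 1.25, and Maf (-0.19 ± 0.15) did not pass.

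Among 20 inflammasome and pyroptosis genes, 15 rose and 4 fell (median 1.33). Casp4 (caspase-11 in mice), which binds cytosolic LPS, averaged 207 ± 24.8 CPM in KO LPS and 10.2 ± 1.19 CPM in KO M0 (log2 change 4.40), and its pore-forming target Gsdmd rose by 2.64. The necroptosis effector Mlkl rose by 4.07, Mefv by 6.10, Casp1 by 3.17 and Nlrp3 by 2.18. Txnip (-1.33), Nlrp1b (-1.99), P2rx7 (-0.43) and Nek7 (-0.30) fell.

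Antigen presentation genes of class I rose as a whole list, 18 of 18, without overlap between the groups for any (median log2 change 3.21). The peptide transporter gene Tap1 averaged 963 ± 192 CPM in KO LPS and 59.7 ± 6.09 CPM in KO M0, and the immunoproteasome subunit Psmb8 977 ± 76.5 CPM in KO LPS and 94.3 ± 10.1 CPM in KO M0 (SD, n = 4 each). Tap2 rose by 3.25, H2-T23 by 3.42, the proteasome activator Psme2 by 3.62 and the class I regulator Nlrc5 by 3.39. Of 12 class II genes, 7 rose and 2 fell; 4 rose when the KO libraries were fitted alone and without KO M0 7 or 8, and 1 fell without KO LPS 5 or 8. H2-Ab1 rose by 1.54, the invariant chain Cd74 by 2.23, the cathepsin gene Ctss by 0.62 and H2-DMb1 by 0.39, the last with an adjusted p of 0.11 in the fit of the KO libraries alone, 0.118 without KO M0 7 and 0.0892 without KO M0 8. H2 genes share sequence, which makes their separate counts uncertain. Among 15 costimulatory and checkpoint genes 11 rose and 2 fell: Cd40 rose by 6.72, Cd274 (PD-L1) by 5.39, Cd86 by 2.53 and Slamf1 by 7.27, and Havcr2 (TIM-3) and Cd200r1 fell (-2.43 and -0.93).

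**Figure D4:**
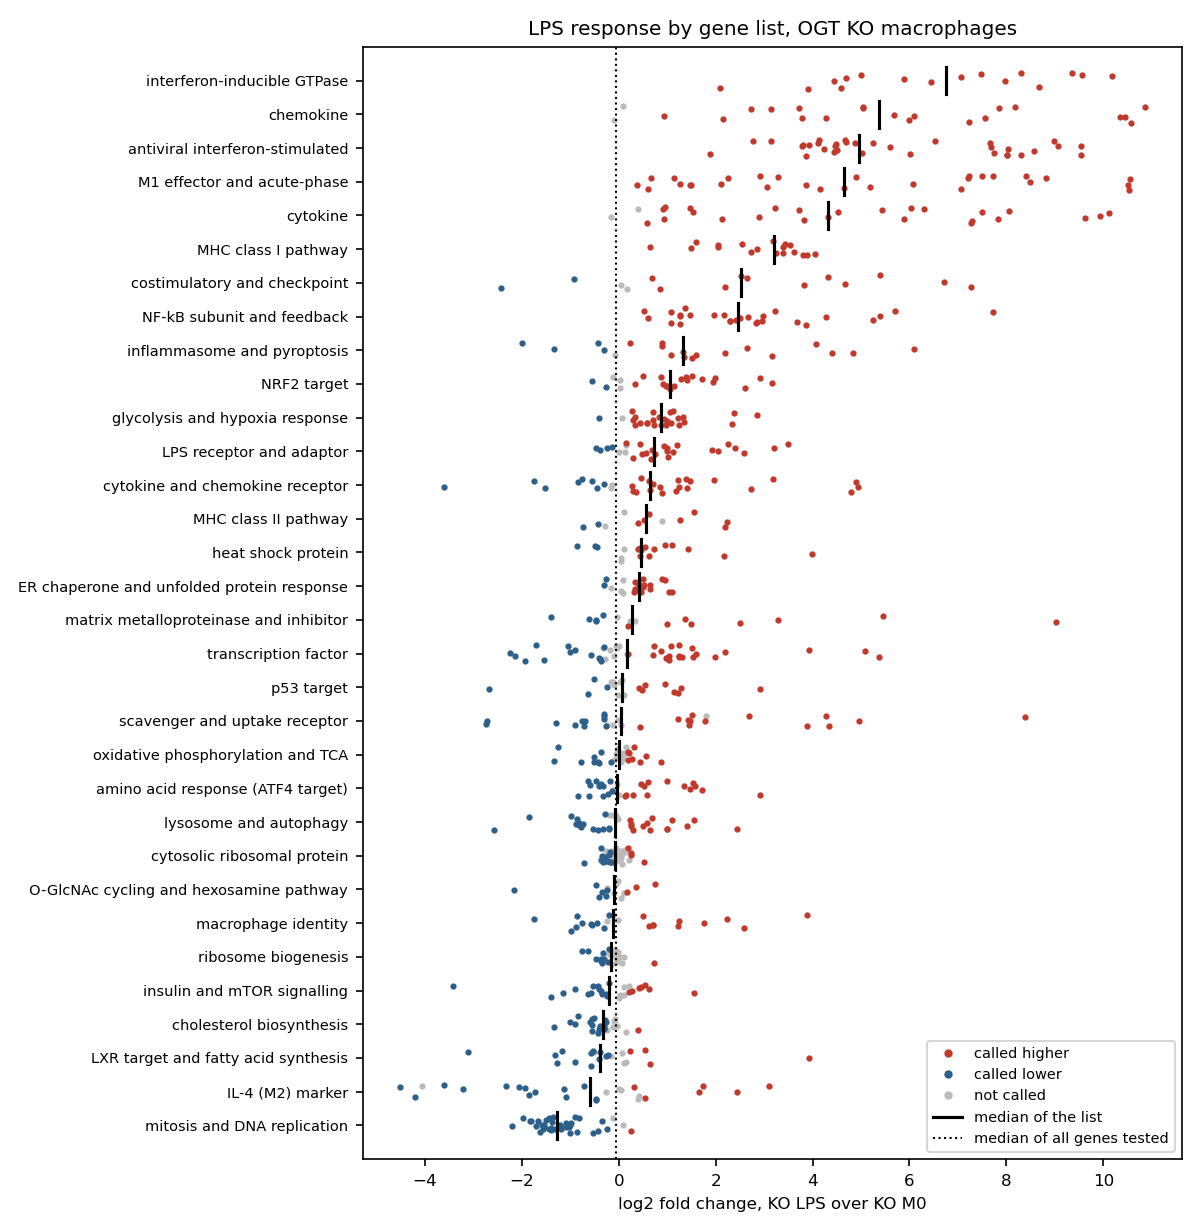
Log2 fold change of KO LPS over KO M0 for every tested member of 32 gene lists (x axis), lists ordered by their median (black bar). Red points are called higher, blue lower, grey not called, and the dotted line is the median of all tested genes, -0.07; interferon-inducible GTPase genes lie highest (median 6.75) and mitosis and DNA replication genes lowest (median -1.26).

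Of the 26 genes tested that mark IL-4-treated (M2) macrophages, 14 fell and 6 rose, with a median of -0.59. Mrc1, the mannose receptor CD206 (chromosome 2, 14229414 to 14332023), had 87.5, 89.5, 83.7 and 70.7 CPM in KO LPS libraries 5 to 8 and 924, 908, 624 and 599 CPM in KO M0 libraries 5 to 8. M0 7 and 8 were lower than M0 5 and 6, and the groups did not overlap (log2 change -3.21 ± 0.14, edgeR adjusted p = 9.44e-17). The lectin gene Clec10a had 1.12, 0.862, 0 and 1.09 CPM in KO LPS and 23.8, 23.3, 23.01 and 23.9 CPM in KO M0, a log2 change of -4.51 ± 0.29. The haemoglobin scavenger Cd163 fell by 4.21 on the log2 scale, coagulation factor F13a1 by 2.33, the scavenger receptor Stab1 by 1.94, Clec7a (dectin-1) by 1.09 and Matk by 3.60. Arg1 (arginase-1), also on this list, rose: it had 88.5, 85.3, 149.5 and 153 CPM in KO LPS and 11.96, 8.54, 16.1 and 14.8 CPM in KO M0, a log2 change of 3.11 ± 0.21 (edgeR adjusted p = 1.09e-12). KO LPS 7 and 8 were above KO LPS 5 and 6 for Arg1. Transglutaminase Tgm2 rose by 1.65, and Chil3 (Ym1), with 1.68, 1.83, 5.98 and 1.87 CPM in KO LPS and 2.13, 1.91, 3.13 and 1.52 CPM in KO M0, did not pass. The value of Chil3 in KO LPS 7 is 1 count.

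Of the 23 macrophage identity genes 10 rose and 10 fell, against 31.2% higher and 36% lower of all tested genes. The scavenger and lysosome lists below also split between both directions. Fcgr1 (CD64) rose by 3.88, Aif1 by 2.23 and Adgre1 by 1.75, and the aspartyl protease gene Ctsd (-0.87), Lgals3 (-0.75) and Lyz2 (-0.46) fell. Of 29 scavenger and uptake receptor genes 13 rose and 11 fell (median 0.04). Marco, a receptor for bacteria, averaged 203 ± 92.3 CPM in KO LPS and 0.547 ± 0.0986 CPM in KO M0 (log2 change 8.39), Msr1 rose by 2.69 and Siglece by 4.96. Gas6, a bridge to apoptotic cells, averaged 114 ± 24.03 CPM in KO LPS and 803 ± 141 CPM in KO M0 (log2 change -2.71; SD, n = 4 each), and Trem2 fell by 1.30. Of 34 lysosome and autophagy genes 14 rose, among them Ctsc (2.44), Ctsz (1.41) and Ctsh (1.09), and 15 fell, among them Galc (-2.57). Of 16 metalloproteinase and inhibitor genes 8 rose and 5 fell: Mmp9 had 25.1, 26.1, 17.9 and 28.2 CPM in KO LPS and 5.51, 5.49, 3.88 and 3.70 CPM in KO M0 (log2 change 2.50), without overlap, Mmp25 rose by 9.03, Mmp3 by 5.46 and Adam17 by 0.997. Fibroblasts express several of these protease genes, and the levels of the stromal markers are given above.

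The 12 largest decreases among genes reaching 20 CPM were Slco2b1, Gpr34, Cd28, Clec10a, Reps2, Slc46a3, Rasgrp3, Hpgd, St6gal1, Nat8l, Arhgap19 and Cxcr4. The organic anion carrier gene Slco2b1 had 0.165, 0.367, 0 and 0.238 CPM in KO LPS libraries 5 to 8 and 42.98, 41.1, 37.7 and 35.8 CPM in KO M0 libraries 5 to 8 (log2 change -7.27 ± 0.25). The lysophosphatidylserine receptor gene Gpr34 had 0.743, 0.734, 0 and 0.459 CPM in KO LPS and 34.4, 31.96, 34.5 and 34.5 CPM in KO M0 (log2 change -5.71 ± 0.19). Hpgd, which inactivates prostaglandins, had 4.10, 3.72, 0 and 3.19 CPM in KO LPS and 71.2, 62.2, 41.5 and 43.6 CPM in KO M0 (log2 change -3.90 ± 0.17). All 3 genes were at 0 in KO LPS 7, which allows up to 17.9 CPM there, and the 3 deep LPS libraries lay below every M0 library by more than 10-fold. The sialyltransferase St6gal1 had 7.45, 7.61, 0 and 7.78 CPM in KO LPS and 118, 109, 95.97 and 92.2 CPM in KO M0, with LPS below M0 in every library (log2 change -3.77 ± 0.09, edgeR adjusted p = 2.76e-22). In Rasgrp3 and Cxcr4 the KO LPS 7 value of 17.9 CPM is 3 counts.

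Of 38 mitosis and DNA replication genes, 35 fell and 1 rose, with a median log2 change of -1.26. Cdc20, the activator of the anaphase-promoting complex, had 14.2, 14.8, 11.96 and 16.8 CPM in KO LPS libraries 5 to 8 and 54.7, 55.6, 51.8 and 51.6 CPM in KO M0 libraries 5 to 8 (log2 change -1.81 ± 0.08, edgeR adjusted p = 4.85e-17). Top2a averaged 36.2 ± 2.78 CPM in KO LPS and 98.1 ± 12.54 CPM in KO M0 (SD, n = 4 each; log2 change -1.44). The mitotic kinesins Kif11 and Kif23 changed by -1.83 and -2.20, Cdca8 by -1.55, and the replication helicase subunit Mcm2 by -1.35. Pcna, the DNA polymerase clamp, rose (0.25 ± 0.07), and Ccnd1 (-0.13 ± 0.12) and Tyms (0.08 ± 0.08) did not pass. CCAAT, printed in capitals in the Cdc20 window, was found in 80.6% of the 31 windows of these genes, against 36.4% of all tested genes. Of 19 p53 target genes 8 rose and 4 fell: Fas rose by 2.91, Mdm2 by 1.28 and the cell-cycle inhibitor Cdkn1a by 1.23, and Sesn1 fell by 2.67; in the fit of the KO libraries alone 8 fell, and 7 or 8 without any 1 KO M0 library.

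Glycolysis and hypoxia response genes rose in 25 of 27 cases, with a median of 0.86. Pfkfb3, which makes the activator of phosphofructokinase, averaged 509 ± 47.1 CPM in KO LPS and 72.3 ± 8.18 CPM in KO M0 (log2 change 2.85), Hk3 rose by 2.37, Egln3 by 2.33, Ero1l by 1.22 and the glucose transporter Slc2a1 by 1.35. Of 31 genes of oxidative phosphorylation and the TCA cycle 8 rose and 9 fell, with 2 up and 14 down when the KO libraries were fitted alone and 2 to 4 up without any 1 KO M0 library. Cox5a, a subunit of cytochrome c oxidase, rose by 0.87. The isocitrate dehydrogenase gene Idh1 averaged 70.4 ± 8.82 CPM in KO LPS and 185 ± 21.7 CPM in KO M0 (log2 change -1.33; SD, n = 4 each), Idh2 fell by 1.26 and the fumarase gene Fh1 by 0.77. Of 25 cholesterol biosynthesis genes 18 fell and 1 rose, with a median of -0.33: Dhcr7 changed by -1.34 and Stard4 by -0.83. Without KO LPS 8 the count of falls was 11. Among 21 LXR target and fatty acid synthesis genes 4 rose and 12 fell: Nr1h3 itself rose by 3.94, while Abca9 (-3.12), Fads1 (-0.90) and Arl4c (-1.28) fell.

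Of 23 NRF2 target genes, 18 rose and 2 fell (median 1.06). Hmox1, which degrades haem, averaged 2273 ± 451 CPM in KO LPS and 256 ± 30.1 CPM in KO M0 (log2 change 3.17), and the ferritin heavy chain Fth1 18471 ± 3438 CPM in KO LPS and 3044 ± 184 CPM in KO M0 (log2 change 2.60; SD, n = 4 each). Glutathione reductase Gsr rose by 1.98 and the NRF2 inhibitor Keap1 by 1.71; catalase Cat fell by 0.55. Of 31 amino acid response genes 14 rose and 12 fell, and without numbers 5 and 6 the falls numbered 7. The cystine carrier Slc7a11 rose by 2.92, its partner chain Slc3a2 by 1.35, Ddit3 by 1.73 and Wars by 1.53, a tryptophan-tRNA synthetase that interferon is known to induce. Of 22 ER chaperone genes 16 rose and 2 fell, Hspa5 (BiP) by 1.04, Creld2 by 1.10, Dnajb11 by 0.95 and Manf by 0.89. Of 18 heat shock genes 12 rose and 3 fell: Hspa1a rose by 3.98 and Hspa1b, a near-copy that shares its reads, by 2.18.

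The 15 hexosamine pathway and O-GlcNAc cycling genes gave 3 that rose, 6 that fell and 6 that did not pass, with a median log2 change of -0.10, which is close to all tested genes (31.2% higher, 36% lower, median -0.07). In the fit of the KO libraries alone, and without any 1 KO M0 library, 1 rose, and without numbers 5 and 6 the falls numbered 3. Gfpt1, the rate-limiting enzyme of the pathway, averaged 111 ± 4.74 CPM in KO LPS and 66.3 ± 8.01 CPM in KO M0 (log2 change 0.75; SD, n = 4 each). Gnpda1, a deaminase that turns glucosamine-6-phosphate back toward glycolysis, had 34.6, 38.03, 11.96 and 28.7 CPM in KO LPS libraries 5 to 8 and 165, 154, 139 and 141 CPM in KO M0 libraries 5 to 8. It fell without overlap (log2 change -2.16 ± 0.09). Nagk (-0.47) and Gnpda2 (-0.35) also fell, Gnpda2 with an adjusted p of 0.329 without libraries 5 and 6. Mgea5 (OGA, which removes the sugar) had 52.6, 57.2, 77.7 and 55.8 CPM in KO LPS and 60.6, 58.7, 61.9 and 57.6 CPM in KO M0. The log2 change of -0.10 ± 0.06 did not pass, and under other scalings Mgea5 was called lower. It was -0.19 with relative log expression factors, -0.26 with the KO libraries alone and -0.25 to -0.29 with any 1 of the 4 KO M0 libraries left out. Of 27 insulin and mTOR signalling genes 7 rose and 14 fell, with 4 up in the fit of the KO libraries alone and without KO M0 5 or 6: Pik3cd rose by 1.56 and Eif4e by 0.53, and Deptor (-3.43), Ulk1 (-0.89), Irs1 (-1.14) and Irs2 (-1.40) fell. Of 24 ribosome biogenesis genes 11 fell, among them Utp20 (-0.63), Dkc1 (-0.76) and Nolc1 (-0.33), and 1, Wdr43, rose (0.73); 18 fell in the fit of the KO libraries alone, 17 to 21 without any 1 KO M0 library and 7 without numbers 5 and 6. Of 35 ribosomal protein genes 4 rose and 12 fell, 20 fell in the fit of the KO libraries alone and 19 to 21 without any 1 KO M0 library, against 7 without KO LPS 5, 6 or 7, 6 without all shallow libraries and 5 without numbers 5 and 6; in the fit of all libraries Rpl4 fell by 0.35 and Rpl10a by 0.36.

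The response of the KO was then set against that of WT cells given the same LPS. The WT response had 4320 genes higher (29.4%) and 4152 lower (28.3%). Of the genes called higher in KO, 3698 were also called higher in WT (80.5% of the KO list and 85.6% of the WT list), and of those called lower in KO 3628 were also lower in WT (68.5% and 87.4%). Opposite calls were made for 32 genes higher in KO and lower in WT and for 34 lower in KO and higher in WT. The difference between the responses itself (KO LPS minus KO M0, less WT LPS minus WT M0) was called for 1676 genes (11.4%), of which 972 (6.62%) were more positive in KO and 704 (4.79%) more negative. With the label number as a replicate block these counts were 1620 and 1367. WT LPS 1 and 2 are shallow, and without all 3 shallow libraries of the series the counts were 1216 and 729. The majority direction turned when any 1 M0 library was left out: without KO M0 5, 6, 7 or 8 there were 926, 845, 758 and 764 more positive against 971, 900, 839 and 834 more negative, and without WT M0 1, 2, 3 or 4 there were 795, 838, 783 and 784 against 917, 915, 811 and 844. The count of more negative genes was 225 without WT LPS 3, 263 without WT LPS 4, 388 without KO LPS 6 and 476 without KO LPS 5. With KO libraries 5 and 6 alone 1548 genes were more positive and 801 more negative, with 7 and 8 alone 1104 and 795, and in DESeq2 the counts were 643 and 215.

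**Figure D5:**
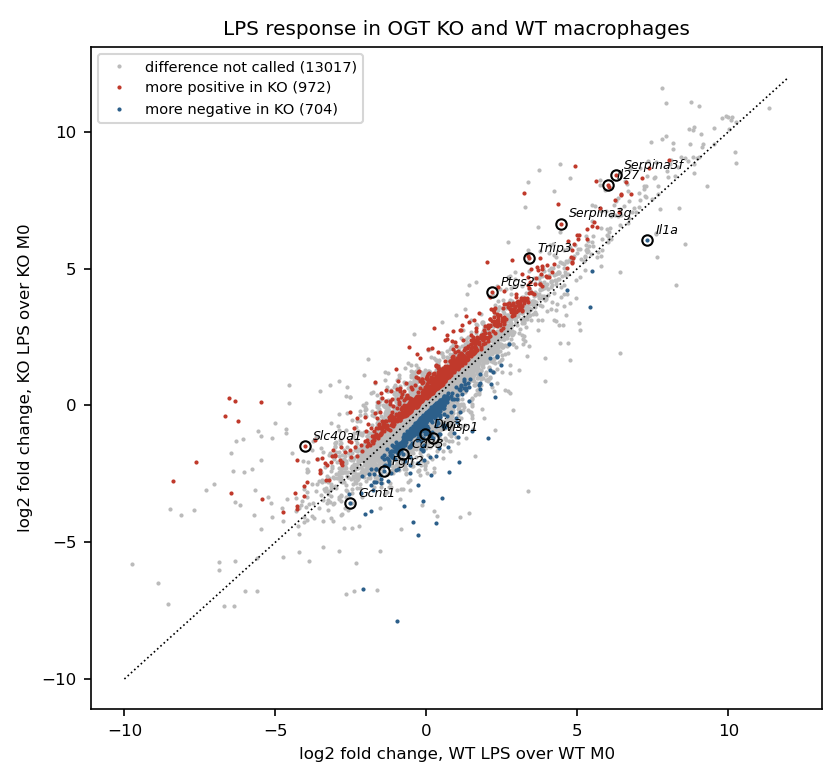
Log2 response to LPS in KO macrophages (y axis) against that in WT macrophages (x axis) for each tested gene. Red points mark the 972 genes whose response was more positive in KO, blue the 704 more negative, circles the 6 named genes in each direction, and the dotted line equal responses; Slc40a1 lies well above the line, with -1.49 in KO and -4.03 in WT.

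The endothelial markers, whose KO sums are given above, summed to 20.6 to 50.5 CPM in WT LPS and 16.7 to 21.7 CPM in WT M0, below every KO library of the same state. The stromal markers summed to 11480.5 to 14451 CPM in WT LPS and 10514 to 12268 CPM in WT M0, below every KO library, and the part of these cells in the differences was not tested.

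Among the lists, the difference was more positive in KO for 16 of 28 NF-kB genes, 11 of 16 interferon-inducible GTPase genes, 11 of 34 antiviral genes, 9 of 18 class I genes, 14 of 23 NRF2 target genes and 10 of 27 glycolysis genes, and more negative for none of these. More negative differences were found for 7 of 24 ribosome biogenesis genes and 4 of 38 mitosis genes, and 2 more mitosis genes had a more positive difference. The background shares over all tested genes are those given above, 6.62% and 4.79%, and they differed with the direction of the KO response. Of the 4591 genes called higher in KO, 726 were more positive and 59 more negative. Of the 5294 called lower in KO, 150 were more positive and 530 more negative. Lists that mostly rose or fell are to be read beside these counts, and the mitosis genes are not set apart from other genes that fell. These list counts of differences were not recomputed under the alternative fits, in which the totals over all genes moved.

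The iron exporter gene Slc40a1 (ferroportin, chromosome 1, 45908070 to 45926532) had 53.9, 57.9, 29.9 and 29.5 CPM in KO LPS libraries 5 to 8 and 175, 159, 94.5 and 96.8 CPM in KO M0 libraries 5 to 8, against 0, 10.5, 11.3 and 9.93 CPM in WT LPS libraries 1 to 4 and 168, 171, 174 and 179 CPM in WT M0 libraries 1 to 4. It fell in both genotypes, less in KO, and KO libraries 7 and 8 were lower than 5 and 6 in both states. WT LPS 1, at 0, is a shallow library. The difference of the responses was 2.55 ± 0.34 (log2 ± SE, edgeR adjusted p = 2.51e-05). Ptgs2 had 51.6, 62.8, 57.6 and 80.2 CPM in WT LPS libraries 1 to 4 and 18.03, 15.5, 12.53 and 14.4 CPM in WT M0 libraries 1 to 4, beside the KO values above. All 4 KO LPS values lay above all 4 WT LPS values, of which 1 and 2 come from shallow libraries. The difference of the Ptgs2 responses was 1.97 ± 0.35 (edgeR adjusted p = 0.000589). Mrc1 fell in both genotypes, with log2 changes of -3.21 in KO and -4.36 in WT, a difference of 1.15 ± 0.20 (adjusted p = 0.000331, edgeR).

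The other genes with the largest positive differences were Serpina3g (2.19 ± 0.28), Serpina3f (2.15 ± 0.66), Il27 (2.03 ± 0.35) and Tnip3 (1.99 ± 0.34), all of which rose in both genotypes. Il27 had 65.4, 61.5, 59.8 and 46.5 CPM in KO LPS and 0.333, 0.175, 0.183 and 0.160 CPM in KO M0, against 15.5, 31.4, 20.6 and 24.9 CPM in WT LPS and 0.409, 0.208, 0.363 and 0.404 CPM in WT M0. The 2 serine protease inhibitor genes belong to a cluster of near-copies, so their separate counts are uncertain. The call for Serpina3f had an edgeR adjusted p of 0.034. It was lost when any 1 of 7 libraries was left out (KO LPS 5 or 6, KO M0 7 or 8, WT LPS 3 or 4, WT M0 4), with differences of 1.63 to 2.19. Among cytokines, the response was more positive in KO for Il10 (1.94 ± 0.39), Il6 (1.26 ± 0.36) and Tnf (0.63 ± 0.18) and more negative for Il1a. The Il6 call was lost in DESeq2, without numbers 5 and 6, and without KO M0 5, WT LPS 3, WT M0 2 or WT M0 3, with differences of 0.92 to 1.14. The Tnf call was lost without numbers 5 and 6, KO M0 7, WT LPS 3 or WT M0 1, with differences of 0.45 to 0.60. Il1a had 61.1, 65.1, 132 and 90.8 CPM in KO LPS and 0.989, 0.835, 1.61 and 1.17 CPM in KO M0, against 87.7, 115, 88.3 and 107 CPM in WT LPS and 0.962, 0.526, 0.480 and 0.519 CPM in WT M0, a difference of -1.27 ± 0.30 (edgeR adjusted p = 0.00565). Every KO M0 value lay above WT M0 2, 3 and 4, and the LPS values of the genotypes overlapped.

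For 5 of the 6 largest negative differences the gene fell in KO. Cd33, an inhibitory sialic acid receptor, had 8.95, 10.7, 5.98 and 7.95 CPM in KO LPS and 32.9, 32.3, 31.5 and 28.4 CPM in KO M0, against 25.8, 15.7, 16.98 and 16.01 CPM in WT LPS and 28.3, 24.04, 30.1 and 30.7 CPM in WT M0 (difference -1.003 ± 0.15, edgeR adjusted p = 7.15e-05). Every KO LPS value lay below every WT LPS value, but the KO LPS 7 value is 1 count and WT LPS 1 and 2 are shallow. Dio3, which inactivates thyroid hormone, had 14.6, 15.3, 17.9 and 15.6 CPM in KO LPS and 31.05, 28.01, 30.6 and 36.6 CPM in KO M0, against 36.1, 31.4, 30.8 and 25.2 CPM in WT LPS and 28.2, 33.5, 30.2 and 24.9 CPM in WT M0 (difference -1.01 ± 0.16). It fell in KO while the WT response of -0.05 was close to 0. Gcnt1, which branches O-glycans, differed by -1.05 ± 0.19 and Fgfr2 by -0.9997 ± 0.20, and without libraries 5 and 6 the Gcnt1 difference was -0.53 with an adjusted p of 0.0552. Wisp1, a secreted matricellular protein gene, had 24.9, 29.7, 47.8 and 50.9 CPM in KO LPS and 47.4, 50.05, 117 and 106 CPM in KO M0, against 15.5, 73.2, 41.9 and 33.2 CPM in WT LPS, the first 2 from shallow libraries, and 33.9, 33.5, 28.8 and 34.9 CPM in WT M0. KO libraries 7 and 8 lay above 5 and 6 in both states, and the KO groups overlapped. The Wisp1 difference of -1.39 ± 0.43 had an edgeR adjusted p of 0.0349. Its call was lost in DESeq2, without all shallow libraries, and when any 1 of 7 libraries was left out. These were KO LPS 5 or 6, KO M0 7 or 8, WT LPS 3 or 4 and WT M0 3, and the differences were -1.51 to -1.15. For Nos2 (0.54 ± 0.76), Irg1 (0.72 ± 0.73), Il1b (0.82 ± 0.59), Cxcl10 (0.34 ± 0.61), Il12b (1.41 ± 1.03) and Arg1 (-0.35 ± 0.30) the difference did not pass the test, with edgeR adjusted p-values of 0.707, 0.576, 0.409, 0.782, 0.421 and 0.509. For the first 5 of these the SE, 0.59 to 1.03, stands beside M0 levels near 0.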

How the data were processed

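Total RNA of mouse bone marrow-derived macrophages was sequenced, and the authors deposited raw read counts per gene symbol for each library. Per the submitters' processing notes, which give no roles or order, TopHat2 2.1.0, HTSeq 0.9.1 and the mm10 build were used; the use of strand in counting is not given there. Each deposited count file held 24421 symbols, and its 5 summary lines, 8.76 to 9.98% of all counted reads, were left out of library sizes and tests.

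Counts of all 24 libraries were fitted in edgeR 4.0.16 (R 4.3.3) by the quasi-likelihood method with 1 coefficient per group, so that the 6 groups shared the estimate of the spread (18 residual degrees of freedom). Libraries were scaled by the trimmed mean of M-values (TMM), and filterByExpr with a minimum count of 10 kept 14693 genes. The tested contrasts were KO LPS minus KO M0, WT LPS minus WT M0, and the difference between them; genes were called where the p-value, adjusted over all genes tested by Benjamini-Hochberg, was under 0.05. CPM values use effective library sizes, standard errors are the log2 fold change divided by the square root of F, and the code was checked on simulated data. Differences in CPM compare a gene with itself and not with other genes.

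The members and the gene lists were chosen with earlier results of these data known. Genes named in the text were 18 chosen by name, the 12 largest increases and decreases with groups that did not overlap and the higher group's mean at 20 CPM or above, up to 4 members of each list with the smallest adjusted p, single members needed to describe a list, and the 6 largest differences between genotypes in each direction. The promoters of Cxcl10 and Nfkbia and the marker gene Hdc were added after their matches or values were seen.

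The main fit did not pair libraries, and label numbers paired them only in the KO differences by number and in the block fit. Deviations from the group means correlated at 0.411, 0.381, 0.22 and 0.363 for numbers 5, 6, 7 and 8 over 3270 genes of at least 50 CPM. The numbers fall into 2 sets, 5 with 6 and 7 with 8, whose members also correlated with each other. KO M0 6, for example, correlated with KO LPS 5 at 0.413. Pairing by number was therefore not told apart from these 2 sets. A fit with the number as a replicate block was an alternative, beside DESeq2 1.42.0, relative log expression (RLE) factors, no filter, the 8 KO libraries alone, and fits without shallow libraries, without each library in turn, without numbers 5 and 6, and without numbers 7 and 8. Promoter windows were matched by RefSeq symbol; 23204 of the symbols matched RefSeq. Cxcl11, Nos2, Ccl5 and Gbp4 have no window.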

Additional observations from a re-analysis of the deposited data

Results flagged for a closer look

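Among the 49 genes named for their own values rather than as list members, 98 groups of 4 libraries were examined for a library whose gap to its nearest neighbour exceeded Dixon's critical share of the group's range, which chance gives in about 1 in 20 groups. Of these, 11 did, and 6 of the 11 were KO LPS 7, where 1 count equals 5.98 CPM. In KO LPS 7 these were Il6, Reps2, Slc46a3 and St6gal1 at 0 CPM, Chil3 at 5.98 CPM and Rasgrp3 at 17.9 CPM. Tnf in KO LPS 8 was at 212 CPM, below the next value of 273 CPM, and Cx3cr1 in KO LPS 8 was at 46.1 CPM, above the next value of 24.4 CPM. In KO M0, Gpr34 was at 31.96 CPM in library 6, Il27 at 0.333 CPM in library 5 and Gcnt1 at 34.2 CPM in library 5.

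The response to LPS differed between KO and WT, by the test of the difference itself (edgeR, KO response minus WT response on the log2 scale), for 20 of these 49 genes and, with list members included, for 71 of 166 named genes (59 more positive and 12 more negative in KO). Over all tested genes the share was 11.4%, with 6.62% more positive and 4.79% more negative. The 49 include the 6 genes per direction chosen because this difference was called, so those calls were fixed in advance. Most other named genes were chosen for their response to LPS, so these counts do not measure how often responses differ. Of the 20, the response was more positive in KO for Slc40a1 (2.55), Serpina3g (2.19), Serpina3f (2.15), Il27 (2.03), Tnip3 (1.99), Ptgs2 (1.97), Il10 (1.94), Il6 (1.26), Mrc1 (1.15), Hpgd (0.85), Tnf (0.63), Arhgap19 (0.61) and St6gal1 (0.50). It was more negative in KO for Wisp1 (-1.39), Il1a (-1.27), Gcnt1 (-1.05), Dio3 (-1.01), Cd33 (-1.003), Fgfr2 (-0.9997) and Cx3cr1 (-0.86). Adjusted p-values of the 20 from edgeR lay between 1.83e-05 for Serpina3g and 0.0395 for Hpgd. The Cx3cr1 call was lost in DESeq2 (-0.88), without KO LPS 5, KO LPS 6 or WT LPS 3 (-0.70 to -0.65), and without numbers 5 and 6 (-0.32). The Hpgd call was lost without any of 7 single libraries (KO LPS 5 or 6, KO M0 7 or 8, WT LPS 3, WT M0 1 or 2), with differences of 0.60 to 0.86, as well as in DESeq2 (0.87) and without all shallow libraries (0.87). The St6gal1 call was lost in DESeq2 (0.52) and without WT LPS 4 (0.51).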

How the results depend on the processing

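The counts of genes higher and lower in KO LPS stayed within 1.5 times the reported 4591 and 5294 in all alternatives. They were 3430 and 4632 in DESeq2, 4059 and 6116 with RLE factors, 3261 and 6358 with the 8 KO libraries alone, and 4242 and 4721 with those libraries and TMM with singleton pairing, an alternative chosen after seeing the data. Leaving out 1 KO library gave 3527 to 4851 higher and 4586 to 6809 lower, and for at least 2-fold changes 1597 to 1971 higher and 1463 to 2149 lower. With any 1 of the KO M0 libraries left out, 34.2 to 34.8% of calls were upward in place of 46.4%. The median of all genes then shifted by -0.166 to -0.156, and the scaling reference was KO LPS 7. The share was 39.9% with RLE factors.

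The counts of differing responses moved more. With the replicate block by label number they were 1620 more positive and 1367 more negative in KO, in DESeq2 643 and 215, and without numbers 7 and 8 1548 were more positive. Leaving out 1 library gave 717 to 1362 more positive, lowest without WT LPS 3 and highest without KO LPS 8, and 225 to 971 more negative, lowest without WT LPS 3 and highest without KO M0 5. With the replicate block the differences of Tlr4 (0.42), Gpr34 (1.28), Cd28 (0.71) and Slc46a3 (0.53) passed the test. The block changed no call of the KO response among the 166 named genes. No named gene changed sign between calls under any of the 25 alternatives. The majority direction did turn: for the differences between genotypes without any 1 M0 library, and for the KO response without all shallow libraries (5105 higher, 5033 lower), without numbers 5 and 6 (4157, 4104) and without KO LPS 5, 6 or 8 (4630, 4651 and 4851 higher, 4586, 4601 and 4821 lower). The causes were not tested, and the scaling reference was recorded in each fit but not varied on its own. Depth limits KO LPS 7 to genes above about 17.9 CPM.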
